A study of Mus musculus with 11 samples.

Results

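The genes described here are the 49 Wnt pathway genes that were picked by symbol among 21452 protein-coding genes of the mouse, each read from its representative sense transcript in RNA-seq of im-scWAT cells. They comprise 19 Wnt ligands, 12 receptors (10 frizzled receptors and the co-receptors Lrp5 and Lrp6), 11 antagonists and 7 intracellular components. The im-scWAT cells are preadipocytes of the mouse inguinal fat depot that a retrovirus carrying SV40 large T antigen made immortal. In a time course, 6 samples covered days 0, 4 and 8 of differentiation with rosiglitazone (ROS, a PPARγ ligand) at 0.5 μM or without it, 1 sample for each day and medium. A second set of 5 samples at day 8 with ROS carried a retroviral shRNA against mouse Jmjd1a under a U6 promoter and human JMJD1A from an LTR-driven retrovirus, after drug selection of both. WT-hJMJD1A had 2 samples, here called WT A and WT B, while S265A-, S265D- and S265D-H1120Y-hJMJD1A had 1 each. Every transduced sample thus shared the shRNA, the vector and ROS, and none had an empty vector. JMJD1A (Kdm3a) is a histone H3K9 demethylase. S265A takes away the serine that is phosphorylated, S265D mimics its phosphorylated state, and H1120Y changes a histidine that binds the catalytic Fe(II).

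Both induction media held indomethacin, dexamethasone, 3-isobutyl-1-methylxanthine, insulin and T3. Neither day 0 sample had yet received ROS or any other inducer, and this pair of undifferentiated samples is the one measure of spread between like samples in the time course. The sample labels describe a last day without ROS before day 8, whereas the methods for im-scWAT cells describe ROS until day 8. The labels do not say whether the paired samples came from separate cultures, so the p-values measure only the spread between these samples, which may be technical. Total RNA of whole cultures was sequenced, so that fewer cells of a type and less RNA per cell cannot be told apart.

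Wnt ligands are secreted lipid-modified proteins that bind frizzled receptors at the cell surface. With Lrp5 or Lrp6 as co-receptor they stop a cytoplasmic complex built on axin from destroying β-catenin, which then acts with TCF/LEF proteins on target genes, and other ligands act through frizzled receptors without β-catenin. Secreted frizzled-related proteins (Sfrp and Frzb) and Wif1 bind the ligands, and Dickkopf proteins (Dkk) such as Dkk1 and Dkk2 bind the co-receptors. In fat cell precursors Wnt signalling is known for holding back adipocyte differentiation.

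The sequences upstream of 4 genes are shown because the results below turn on them. Wnt2 and Wnt10b are ligands that fell during differentiation, and Fzd4 is a receptor that rose. Sfrp2 is an antagonist that was lower with ROS at day 8 and higher in each hJMJD1A mutant sample than in both WT samples. Those Sfrp2 differences rest on 1 sample per medium and per mutant. Each is the window of 250 bases that ends 1 base before the start of the transcript in the files, taken from the RefSeq promoter table of build GRCm38.p6 and placed by its single exact match in mm9, the build of the files. Capitals mark the GC box GGGCGG or its reverse complement CCGCCC.
Wnt2 promoter, chr6:17980446-17980695, minus strand: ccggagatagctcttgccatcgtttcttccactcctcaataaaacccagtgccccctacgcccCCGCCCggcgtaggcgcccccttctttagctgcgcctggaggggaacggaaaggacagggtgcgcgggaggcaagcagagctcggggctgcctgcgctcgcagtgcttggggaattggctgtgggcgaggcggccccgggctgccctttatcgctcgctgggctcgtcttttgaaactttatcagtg
Wnt10b promoter, chr15:98608582-98608831, minus strand: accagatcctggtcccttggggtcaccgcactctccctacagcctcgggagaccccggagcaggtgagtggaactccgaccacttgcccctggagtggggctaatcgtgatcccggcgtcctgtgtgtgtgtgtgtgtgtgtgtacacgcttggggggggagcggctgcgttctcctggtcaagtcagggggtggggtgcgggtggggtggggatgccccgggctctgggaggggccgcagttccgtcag
Fzd4 promoter, chr7:96552626-96552875, plus strand: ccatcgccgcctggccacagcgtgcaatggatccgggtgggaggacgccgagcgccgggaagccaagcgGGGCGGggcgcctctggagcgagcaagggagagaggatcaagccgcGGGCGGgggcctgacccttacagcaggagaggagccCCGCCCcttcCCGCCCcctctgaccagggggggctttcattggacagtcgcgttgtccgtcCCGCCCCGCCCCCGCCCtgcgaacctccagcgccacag
Sfrp2 promoter, chr3:83569993-83570242, plus strand: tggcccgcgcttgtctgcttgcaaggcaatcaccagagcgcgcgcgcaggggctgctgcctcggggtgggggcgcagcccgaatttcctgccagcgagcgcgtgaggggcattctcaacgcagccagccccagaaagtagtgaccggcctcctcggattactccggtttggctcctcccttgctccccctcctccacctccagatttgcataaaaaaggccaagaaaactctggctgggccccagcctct
The Fzd4 window held 7 GC boxes and the Wnt2 window 1, with none in the Wnt10b and Sfrp2 windows. The GC content was 72.8% for Fzd4, 66.8% for Wnt10b, 63.6% for Wnt2 and 63.6% for Sfrp2. The table matched 33 of the 49 genes, with 42 promoters, and 32 of these (76.2%) held a GC box against 32.7% of all 32851 promoters in the table. Whether a difference in GC content lies behind this was not tested. Some genes had several of the 42 promoters, such as Lef1 with 4 and Wnt5b with 3. The TCF/LEF motif CTTTGA, read on both strands, was in 6 of the 42 promoters (14.3%) against 13.8% of all, and the nuclear receptor motif AGGTCA was in 2 (4.76%) against 14% of all. Neither motif was in the 4 windows shown, and no motif contains another. The promoters with CTTTGA belonged to Dkk1, Frzb, Fzd1, Lef1, Wnt11 and Wnt5b, and those for AGGTCA to Tcf7 and Wnt16. Fzd2, Dkk3, Sfrp1, Sfrp4 and Apcdd1 are not in the table. Of the 19 ligand genes, 8 lay as neighbouring pairs in mm9. Wnt10b (chr15:98602183-98608581, minus strand) lay 11.7 kb from Wnt1 (chr15:98620288-98624261, plus strand), Wnt6 lay 6.7 kb from Wnt10a on chromosome 1, and on chromosome 11 Wnt3a lay 16.2 kb from Wnt9a and Wnt9b lay 24.4 kb from Wnt3. The members of a pair differed in 2 of the 4, as Wnt9a reached an FPKM of 0.556 and Wnt10b 0.479, whereas Wnt3a stayed at or below 0.0155 and Wnt1 at or below 0.0364. In the other pairs all 4 genes stayed at or below 0.0284.

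The deposited FPKM (fragments per kilobase of transcript, scaled to the depth of the library) is a level per length, so that genes can be compared with each other. The total of mapped bases was between 3.10 and 5.29 Gb per sample (median 4.64 Gb), at which 100 bases on a transcript of 2 kb give an FPKM between 0.00944 and 0.0161. Levels under 0.1 therefore rest on few bases, and so do calls that compare such a level with a higher one. The 2 samples of day 0 were 2-fold or more apart in 3.52% of genes, and WT A and WT B in 25.6%. Of 8 adipocyte markers 7 were at least 2-fold higher at day 8 than at day 0 in every sample, while Lep was at 0 in both day 0 samples and the ROS-treated day 8 sample and at 0.252 in the untreated one. Markers of preadipocytes and fibroblasts were mixed, as 4 of 8 were at least 2-fold lower at day 8 in every sample. Pdgfra was called higher (limma adjusted p = 0.0417). Ly6a was at 424 and 484 at day 0 and at 108 with and 495 without ROS at day 8. Of 4 leukocyte markers Ptprc and Emr1 were at 0 throughout and Itgam reached at most 0.0115, but Cd68 was at 0.541 to 21.7. Of 4 muscle markers Myod1, Myog and Ckm were at 0 throughout, but Des rose from 0.407 and 0.568 at day 0 to 6.94 and 10.4 at day 8 (limma adjusted p = 0.000389). Of 4 mural cell markers Acta2 was at 131 and 140 at day 0 and at 2.52 to 12.6 in the other samples, Cspg4 rose from 0.0528 and 0.0398 to 0.521 and 0.300 at day 8 (adjusted p = 0.00634), Rgs5 stayed at or below 0.223 and Kcnj8 at or below 0.0197. Of 4 endothelial markers Cdh5 and Tie1 stayed at or below 0.0112, Kdr at or below 0.567 and Pecam1 at or below 3.47. The part of other cell types in the results was not tested. Kdm3a, the target of the shRNA, had an FPKM of 20.4 in WT A, 17.9 in WT B, 13.0 in S265A, 23.0 in S265D and 28.5 in S265D-H1120Y, against 21.1 in untransduced cells at day 8 with ROS. Whether reads from the human transgene entered this value was not tested, and it does not serve as a check of the labels.

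The cells held receptors and intracellular components of the pathway at far higher levels than ligands. An FPKM of at least 1 in some sample was reached by 21 of the 49 genes, against 57.16% of all coding genes, and these were 1 of 19 ligands (Wnt2), 9 of 12 receptors, 6 of 11 antagonists and 5 of 7 intracellular components. The summed FPKM of the 19 ligands was between 0.928 and 6.87 over the 11 samples, and that of the 12 receptors between 58.4 and 75.8. The antagonists together had 21.4 to 67.0, a wider range than that of the receptors. Ctnnb1, which encodes β-catenin, led all 49 genes with a mean FPKM of 117, followed by the antagonist Sfrp2 with 21.7, Lrp5 with 20.1, Lrp6 with 18.0, the scaffold Axin1 with 17.2 and Apcdd1, a membrane-bound Wnt antagonist, with 14.5. Among the frizzled receptors Fzd1 (7.63), Fzd4 (6.02), Fzd2 (4.93) and Fzd7 (4.83) had the highest means, but their order differed between samples, as Fzd2 was the highest frizzled gene at day 0, Fzd4 in untransduced cells at day 8 (there with Fzd1 nearly as high without ROS, 8.603 against 8.75) and Fzd1 in all transduced samples but WT A.

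A maximum between 0.1 and 1 was found for 15 genes, namely the ligands Wnt4, Wnt5a, Wnt5b, Wnt7b, Wnt9a, Wnt10b, Wnt11 and Wnt16, the receptors Fzd3, Fzd9 and Fzd10, the antagonists Frzb and Sfrp5, and Axin2 and Lef1. The other 13 genes stayed under 0.1 in every sample. They comprise Wnt1, Wnt2b, Wnt3a, Wnt6, Wnt7a, Wnt8b, Wnt9b and Wnt10a, all detected in at least 1 sample at no more than 0.0595, and Dkk1, Dkk4, Wif1, Wnt3 and Wnt8a, which were listed at 0 in all 11 samples. Dkk1 is the best known inhibitor of Lrp6, and only Dkk2 and Dkk3 of its family were found in these cells.

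**Figure D1:**
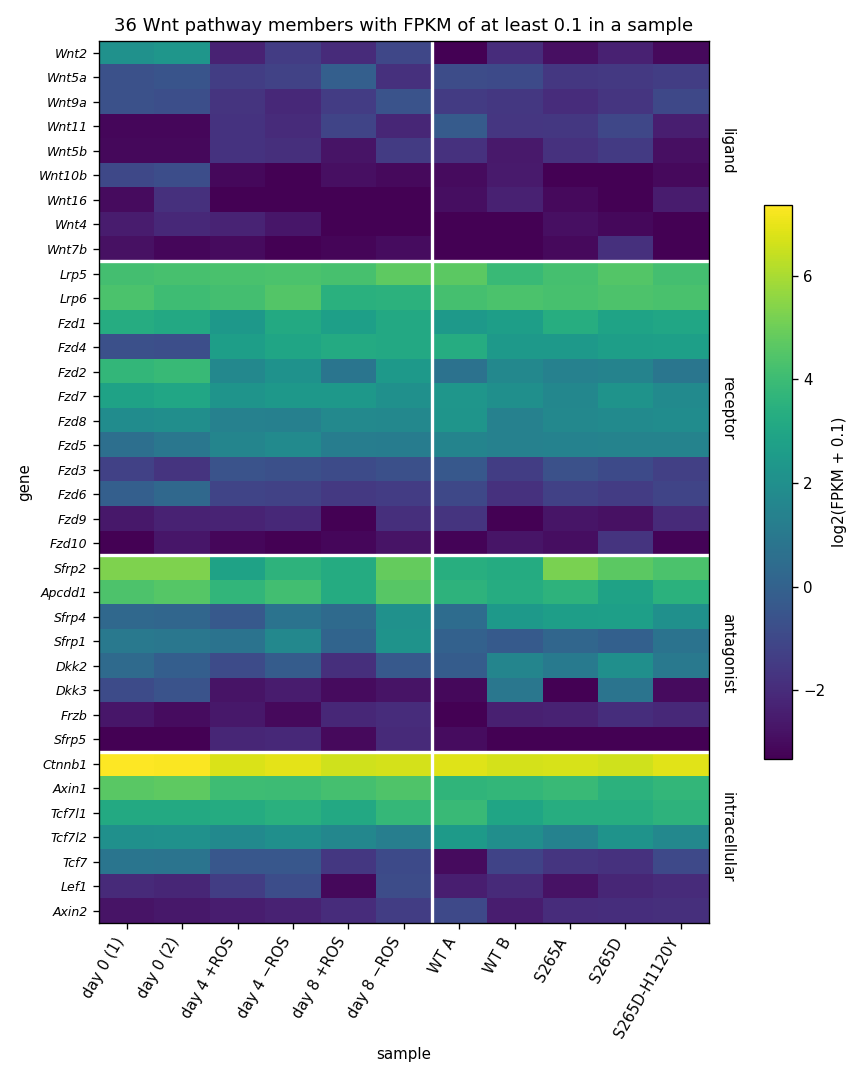
Levels of the 36 genes that reached an FPKM of 0.1, as log2(FPKM + 0.1) in colour, with genes in rows by role and by falling mean within a role, and the 11 samples in columns (time course left of the white line, transduced cells right of it). Ctnnb1 is bright in every column, the ligands are dark apart from Wnt2 at day 0 (4.16 and 4.88), and Dkk3 is bright in WT B and S265D but dark in the other transduced samples.

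The comparison of days 4 and 8 with day 0 addressed how the pathway changed as preadipocytes became adipocytes. The ligands Wnt2 and Wnt10b, the receptors Fzd2, Fzd6 and Fzd7, the antagonist Dkk3, Tcf7 and Ctnnb1 fell at both days, and the receptor Fzd4 rose at both. A gene was counted as 2-fold changed when every sample of one day was at least 2 times every sample of the other, with a minimum FPKM of 0.1 in some sample compared. By this count 14 of 33 genes tested changed at day 4 (5 higher, 9 lower), against 25.1% of all genes (13.1% higher; 1662 of 13856, or 12%, lower). At day 8 it was 14 of 34 (6 higher, 8 lower), against 25.4% of all genes (14.5% higher; 1544 of 14082, or 11%, lower). In limma on log2(FPKM + 0.1), adjusted by Benjamini-Hochberg over 14190 genes at a threshold of 0.05, 14 of 34 genes were called at day 4 (2 higher, 12 lower), against 40.7% of all genes (20.9% higher, 19.8% lower). At day 8 limma called 13 of 34 (3 higher, 10 lower), against 50.1% of all genes (25.0% higher, 25.1% lower). The share called by limma was thus near or under that of all genes, and the genes called were mostly lower. The median log2 difference of the 34 genes was −0.32 at day 4 and −0.32 at day 8, against −0.0027 and −0.0589 for all genes tested. Both comparisons share the day 0 samples. The spread within days 4 and 8 contains the difference made by ROS, with 3 residual degrees of freedom. Leaving out 1 sample changed the limma count at day 4 to 4 (without either day 4 sample or day 0 sample 2), 5 (without day 0 sample 1) or 21 (without either day 8 sample), and at day 8 to 7 (without either day 0 sample), 10 (without either day 4 sample), 17 (without the untreated day 8 sample) or 20 (without the ROS-treated day 8 sample). Fzd4, Wnt2, Wnt10b and Dkk3 kept their calls at both days whichever sample was left out, as did Tcf7 and Fzd6 at day 8, and each of the other genes called lost its call without at least 1 sample.

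Among the ligands, Wnt2, the only one above an FPKM of 1, was at 4.16 and 4.88 in the day 0 samples, at 0.102 with and 0.272 without ROS at day 4, and at 0.148 with and 0.389 without ROS at day 8. Both day 0 samples stood far above all 4 later samples. On the log2 scale it fell by 4.07 at day 4 (SE 0.45, limma adjusted p = 0.00175) and by 3.73 at day 8 (SE 0.45, adjusted p = 0.00187), and its mean at day 8 was 16.9 times lower than at day 0. Wnt10b, a ligand known for holding preadipocytes undifferentiated, had 0.401 and 0.479 at day 0 and between 0 and 0.035 in the 4 later samples. It fell by 2.31 at day 4 and fell by 2.08 at day 8 (limma adjusted p = 0.00208 and 0.00237). Wnt9a was lower at day 4 (0.201 and 0.135, against 0.525 and 0.493), where limma called it with an adjusted p of 0.0383, but its untreated sample of day 8 was at 0.556. Wnt4 was at 0.0777 and 0.136 at day 0, on 399 and 697 mapped bases, and at 0 in both day 8 samples (limma adjusted p = 0.0316). In the opposite direction, Wnt11 was at 0.0154 and 0.0153 at day 0, 0.197 and 0.149 at day 4 and 0.359 and 0.123 at day 8, and limma called it at day 8 (log2 difference 1.47, SE 0.40, adjusted p = 0.0251). Wnt5b went from 0.0179 and 0.018 to 0.199 and 0.175 at day 4 without passing limma (adjusted p = 0.0632). Wnt16 was 2-fold lower at both days on a day 0 level of 0.0255 and 0.179, and was the only one of the 29 genes with an FPKM of 0.1 or more at day 0 whose 2 day 0 samples were 2-fold apart.

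Among the receptors, Fzd4 had 0.519 and 0.486 at day 0, 6.26 with and 7.70 without ROS at day 4, and 9.24 with and 8.75 without ROS at day 8. The groups were far from overlapping, and the ROS-treated and untreated samples differed little. Its mean was 13.9 times higher at day 4 and 17.9 times higher at day 8, with log2 differences of 3.55 (SE 0.19, limma adjusted p = 0.000175) and 3.92 (SE 0.19, adjusted p = 0.000106). Fzd2 went the other way, from 13.5 and 14.8 at day 0 to 3.07 and 4.29 at day 4 and 1.68 and 5.34 at day 8, in each pair with the ROS-treated sample first. It fell by 1.93 at day 4 and fell by 2.19 at day 8 (SE 0.51, adjusted p = 0.0279 and 0.0152). Fzd6 fell from 0.847 and 1.13 to 0.360 and 0.328 at day 4 and 0.239 and 0.268 at day 8 (adjusted p = 0.0125 and 0.00473).

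The other receptors moved less. Fzd7 fell by 0.62 at day 4 and by 0.72 at day 8 (adjusted p = 0.0426 and 0.0215), from 7.11 and 7.87 to levels between 3.99 and 5.17. Fzd5 rose at day 4 (1.40 and 1.79 against 2.85 and 3.41, log2 difference 0.94, adjusted p = 0.0202), and Fzd8 fell at day 4 (3.57 and 3.79 against 2.47 and 2.39, adjusted p = 0.0423), without a call at day 8 for either. Fzd1 had 9.67 and 8.57 at day 0, 5.03 and 8.89 at day 4 and 6.43 and 8.603 at day 8, where the days overlapped. The co-receptor Lrp6 had 20.4 and 16.4 at day 0, 17.7 and 22.9 at day 4 and 10.96 and 11.6 at day 8. Both day 8 samples were the lowest of the 6 (log2 difference −0.70, SE 0.18, adjusted p = 0.0212). Lrp5 had 18.1 and 19.2 at day 0, 19.5 and 20.1 at day 4 and 19.0 and 26.1 at day 8, and was not called at either day.

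Among the antagonists, Sfrp2 had 39.2 and 39.7 at day 0, 7.02 with and 11.9 without ROS at day 4, and 9.46 with and 28.8 without ROS at day 8. It fell at day 4 (log2 difference −2.09, SE 0.52, limma adjusted p = 0.0237), and at day 8 the untreated sample lay between the other samples and day 0. Dkk3, a divergent member of the Dickkopf family, had 0.4375 and 0.573 at day 0, 0.0468 and 0.076 at day 4 and 0.0232 and 0.0477 at day 8. It fell by 1.90 and by 2.16 (adjusted p = 0.00462 and 0.00251), and no later sample came near day 0. The other antagonists at an FPKM of 1 or more were not called at either day, and their ROS-treated and untreated samples lay far apart. Sfrp1 had 1.91 and 1.80 at day 0, 1.61 with and 3.06 without ROS at day 4, and 0.985 with and 4.34 without ROS at day 8. Sfrp4 had 1.11 and 1.06 at day 0, 0.703 and 1.56 at day 4 and 1.19 and 4.14 at day 8. In both genes the untreated samples of days 4 and 8 stood above day 0. Apcdd1 had 21.0 and 23.0 at day 0, 13.1 and 17.5 at day 4 and 9.40 and 24.1 at day 8. Dkk2, which binds Lrp5 and Lrp6, had 1.18 and 0.807 at day 0, 0.450 and 0.766 at day 4 and 0.169 and 0.689 at day 8.

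Inside the cell, Ctnnb1 had 165 and 158 at day 0, 108 with and 121 without ROS at day 4, and 96.55 with and 103 without ROS at day 8. It fell by 0.49 at day 4 and by 0.69 at day 8 (SE 0.12, limma adjusted p = 0.0208 and 0.00567), without overlap and under 2-fold. Tcf7, a nuclear partner of β-catenin, had 1.69 and 1.63 at day 0, 0.648 and 0.638 at day 4 and 0.228 and 0.421 at day 8. It fell by 1.25 and by 2.09 (adjusted p = 0.0201 and 0.00316). Axin1 had 24.5 and 26.3 at day 0, 16.5 and 16.2 at day 4 and 18.6 and 21.4 at day 8, and was called lower at day 4 (adjusted p = 0.0108) but not at day 8 (adjusted p = 0.0591). Axin2, itself a target of β-catenin, had 0.05 and 0.0604 at day 0, on 992 and 1194 mapped bases, and 0.156 and 0.284 at day 8. It was called higher at day 8 (log2 difference 1.02, SE 0.31, adjusted p = 0.0354). Tcf7l1, which mostly represses its targets, had 8.89 and 8.96 at day 0, 9.58 and 11.04 at day 4 and 8.66 and 13.7 at day 8. Tcf7l2, another TCF family member, had 4.04 and 4.11 at day 0 and 2.98 and 2.25 at day 8, with an adjusted p of 0.0517.

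**Figure D2:**
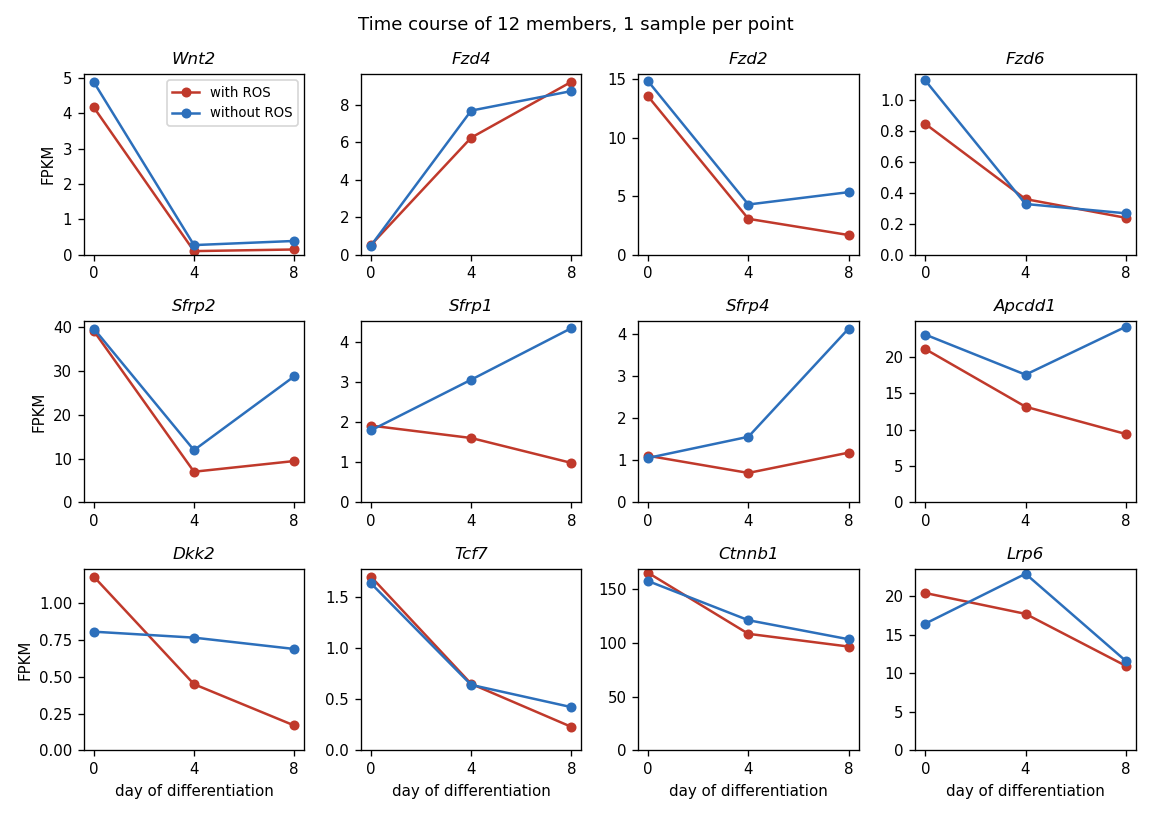
FPKM of 12 of the genes (vertical axis, linear from 0) against the day of differentiation, with ROS in red and without ROS in blue, and 1 sample at each point. Wnt2, Fzd2, Fzd6 and Tcf7 drop after day 0 and Fzd4 climbs from 0.519 and 0.486 in both media, whereas for Sfrp1, Sfrp4, Sfrp2 and Apcdd1 the untreated samples end above the ROS-treated ones at day 8.

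The comparison of media with and without ROS addressed the beige adipocytes obtained with ROS and the white adipocytes obtained without it. At day 8 the secreted and membrane-bound antagonists were lower with ROS, each by 1 sample against 1 sample. Of the 11 antagonists, 7 reached an FPKM of 0.1 at day 8, and 6 of these were at least 2-fold lower with ROS (Sfrp1, Sfrp2, Sfrp4, Sfrp5, Dkk2 and Apcdd1), with Frzb under 2-fold. Over all roles 14 of 30 genes tested were 2-fold apart at day 8 (2 higher and 12 lower with ROS), against 18.6% of all genes (3.40% higher and 15.2% lower). At day 4 only Sfrp4 and Wnt2 of 30 genes were 2-fold apart, both lower with ROS, against 5.28% of all genes (1.40% higher and 3.88% lower). The median log2 difference of the antagonists tested in limma was −1.45 at day 8, against −0.21 for all genes and −0.12 for the receptors. With samples scaled by median-of-ratios factors the median of all genes at day 8 moved by 0.18 to −0.0287, and 13 of the genes were still 2-fold apart, 11 of them lower. No gene was called by limma at either day, where the day 0 pair gave 1 residual degree of freedom and no gene of the whole table passed. The lowest adjusted p among the 34 genes was 0.453 at day 4 and 0.0842 at day 8, and 6 genes at day 4 and 18 at day 8 had an unadjusted p under 0.05. When only genes with an FPKM of at least 1 entered the fit, limma called 5 of 20 genes lower with ROS at day 8 (Sfrp1, Sfrp2, Sfrp4, Apcdd1 and Fzd2, adjusted p between 0.035 and 0.037), against 9.75% of all genes called lower.

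The size of these differences can be set against the day 0 pair, in which no antagonist that reached an FPKM of 0.1 was 2-fold apart. That pair is undifferentiated and does not give the spread at day 8. WT A and WT B, the only like pair at day 8, were 4.15 times apart for Sfrp4 and 3.65 times for Dkk2. For Sfrp1, Sfrp2 and Apcdd1 they were 1.28, 1.07 and 1.2 times apart. Sfrp1 was 4.41 times lower with ROS at day 8 (0.985 against 4.34), with a log2 difference of −2.03 (SE 0.13). Sfrp4 was 3.49 times lower (1.19 against 4.14, log2 difference −1.72, SE 0.12), and Sfrp2 3.04 times lower (9.46 against 28.8, −1.60, SE 0.062). Dkk2 was 4.09 times lower (0.169 against 0.689, −1.56, SE 0.36) and Apcdd1 2.57 times lower (9.40 against 24.1, −1.35, SE 0.11). At day 4 these genes were already lower with ROS by 2.22 times for Sfrp4, 1.90 times for Sfrp1 and 1.70 times for Sfrp2. Whether the difference with ROS changed from day 4 to day 8 was tested as an interaction in limma, which called none of the 34 genes (lowest adjusted p = 0.247), with 13 at an unadjusted p under 0.05.

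Markers of preadipocytes and fibroblasts went the same way as the antagonists. Of 8 such markers 6 were at least 2-fold lower with ROS at day 8 and none higher. The summed FPKM of the 8 was 198 with ROS against 789 without it, of which Ly6a made up 108 and 495. The summed level of 8 adipocyte markers was 35881 with ROS against 9560 without it, of which Fabp4 made up 31402 and 7631. Of the 8 markers 3 (Fabp4, Lipe and Cidec) were at least 2-fold higher and 1 (Lep) lower with ROS. Pparg, Cebpa, Adipoq and Plin1 were under 2-fold apart, and Pparg was lower with ROS (140 against 231). All 4 markers of beige or brown fat were at least 2-fold higher with ROS at day 8. The part of such a difference in cell makeup in the antagonist values was not tested.

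Among the receptors, Fzd2 was 3.18 times lower with ROS at day 8 (1.68 against 5.34), whereas Fzd4, Fzd5, Fzd7, Fzd8 and Lrp6 differed between the media by at most 1.27 times. The ligands Wnt5a and Wnt11, best known for acting without β-catenin, were higher with ROS, with 0.844 against 0.182 for Wnt5a and 0.359 against 0.123 for Wnt11. Wnt2 (0.148 against 0.389), Wnt5b (0.0495 against 0.260) and Wnt9a (0.276 against 0.556) were lower. These 5 ligand levels were all under 1. Lef1, a nuclear partner of β-catenin, was at 0.0159 with ROS and at 0.466 without it at day 8 (log2 difference −2.29, SE 0.11), while its samples at day 4 were at 0.280 and 0.470. Tcf7l1 was lower with ROS by 0.66 on the log2 scale, and Ctnnb1 differed by 1.07 times.

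**Figure D3:**
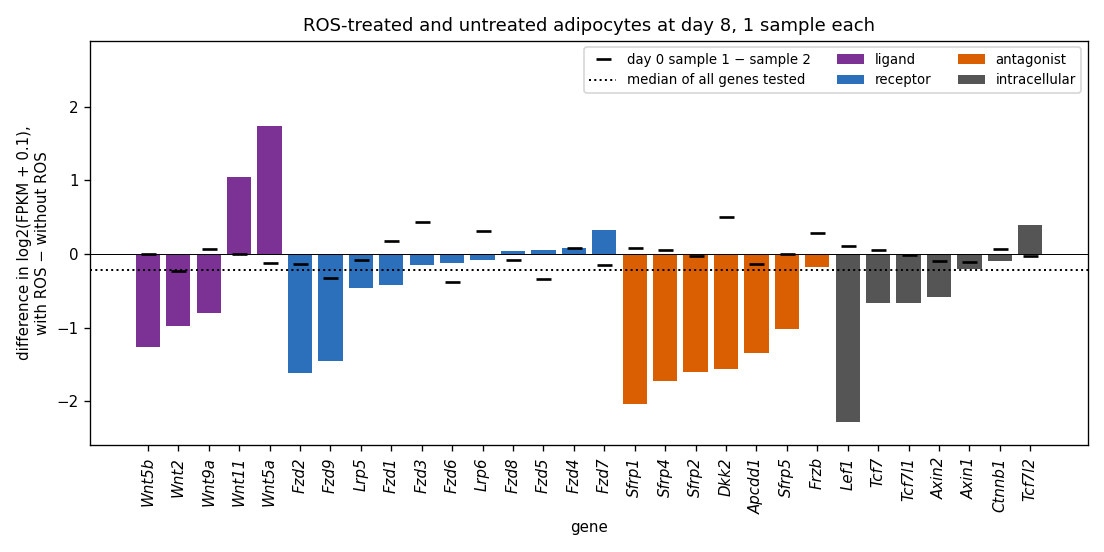
Difference in log2(FPKM + 0.1) between ROS-treated and untreated adipocytes at day 8 (bars, 1 sample each) for the 30 genes that reached an FPKM of 0.1 in either, coloured by role, with the difference between the 2 day 0 samples as black dashes and the median of all genes as a dotted line at −0.21. The bars of Sfrp1, Sfrp4, Sfrp2, Dkk2 and Apcdd1 reach between −2.03 and −1.35, beyond their dashes, while most receptors lie near 0. The dashes come from undifferentiated cells and do not give the spread at day 8.

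The transduced cells addressed what hJMJD1A with the changed serine does in beige adipocytes. The antagonist Sfrp2 was higher in the mutants, with an FPKM of 10.2 in WT A, 9.55 in WT B, 36.9 in S265A, 25.65 in S265D and 19.9 in S265D-H1120Y. The WT samples were close to each other and to untransduced cells at day 8 with ROS (9.46), and all 3 mutants stood above them. The mean of the WT samples was 9.89 ± 0.48 (SD, n = 2). S265A was 3.73 times higher than this mean and S265D 2.59 times higher, with log2 differences of 1.89 and 1.37 (SE 0.34, limma adjusted p = 1 for both, unadjusted p = 0.00795 and 0.0216 in limma). S265D-H1120Y had 1.29 times less than S265D, which is under 2-fold. It was also under 2-fold above WT A, and it was not tested against the WT samples.

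Few other genes stood apart from both WT samples. A mutant was counted when it was 2-fold from WT A and from WT B in the same direction, which held for 2 of 30 genes in S265A (Sfrp2 higher, Dkk3 lower), against 3.31% of all genes (1.64% higher, 1.67% lower). The Dkk3 call rests on WT B, as it is lost without that sample. In S265D it held for 3 of 32 genes, all higher (Sfrp2, Wnt7b and Fzd10), against 2.93% of all genes (1.73% higher, 1.20% lower), where Wnt7b had 0.178 against 0 in both WT samples and Fzd10 had 0.201 against 0.00894 and 0.0541. Both comparisons share the WT samples. limma called none of 32 genes in either, with 1 gene in each (Sfrp2) at an unadjusted p under 0.05, a lowest adjusted p of 1 and 1 residual degree of freedom. Against WT A alone S265A differed 2-fold in 9 genes and S265D in 10, and against WT B alone in 5 and 4. The count therefore rests on which WT sample is used, and only Sfrp2 among the genes with an FPKM above 1 in a WT sample was 2-fold from both WT samples in the same direction in S265A and in S265D.

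Comparing S265D-H1120Y with S265D, 8 of 31 genes were 2-fold apart (2 higher, 6 lower), against 13.0% of all genes (5.11% higher, 7.89% lower). These were Dkk2, Dkk3, Wnt5b, Wnt7b, Wnt11 and Fzd10, which were lower in S265D-H1120Y, and Tcf7 and Fzd9, which were higher. Only Dkk2 (1.92 against 3.92) and Dkk3 (0.0258 against 1.63) reached an FPKM of 1. Each form had 1 sample and limma called none of 32 genes, with none at an unadjusted p under 0.05.

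WT A and WT B differed from each other in many of the genes, and this spread bears on every value of the transduced set. Of the 29 genes that reached an FPKM of 0.1 in a WT sample 12 were 2-fold apart between WT A and WT B (41.4%), against 25.6% of all genes. Dkk3 had 0.0159 in WT A and 1.80 in WT B, 0 in S265A, 1.63 in S265D and 0.0258 in S265D-H1120Y. It was thus high in 2 of the 5 samples, which differed in their hJMJD1A, and near 0 in the other three, so that its values did not follow the form of hJMJD1A. Sfrp4 had 1.28 in WT A, 5.33 in WT B, 6.20 in S265A, 6.47 in S265D and 4.08 in S265D-H1120Y. WT A alone was low, and it was the sample nearest to untransduced cells at day 8 with ROS (1.19). Dkk2 was likewise lowest in WT A (0.765), with 2.79 in WT B, 2.00 in S265A, 3.92 in S265D and 1.92 in S265D-H1120Y. Its level in untransduced cells at day 8 with ROS was 0.169, again nearest to WT A. The 8 preadipocyte or fibroblast markers summed to 310 in WT A, to 776 in WT B, to 394 in S265A, to 638 in S265D and to 399 in S265D-H1120Y, and their part in these values was not tested. Beige or brown markers summed to 190 in WT A, 23.8 in WT B, 42.8 in S265A, 154 in S265D and 82.2 in S265D-H1120Y, against 220 in untransduced cells at day 8 with ROS. All 3 mutants thus lay between the WT samples in this sum.

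The other antagonists varied less. Apcdd1 was at 11.8 and 9.78 in WT A and WT B, 11.9 in S265A, 7.07 in S265D and 11.2 in S265D-H1120Y, and Sfrp1 at 0.905 and 0.705 in WT A and WT B, 1.05 in S265A, 0.860 in S265D and 1.57 in S265D-H1120Y. Both genes kept to the level of untransduced cells at day 8 with ROS (9.40 and 0.985) within 2-fold.

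No receptor with an FPKM of 1 or more was 2-fold from both WT samples in S265A or S265D. Fzd4 had 9.72 in WT A, 5.35 in WT B, 5.49 in S265A, 6.29 in S265D and 6.39 in S265D-H1120Y. Fzd2 had 1.53 in WT A, 3.11 in WT B, 2.53 in S265A, 2.62 in S265D and 1.74 in S265D-H1120Y. For both genes the 3 mutants lay between the WT samples. Fzd1 had 5.30 and 6.26 in WT A and WT B, 9.94 in S265A, 7.24 in S265D and 8.01 in S265D-H1120Y, all 3 mutants above WT by less than 2-fold. Fzd6 had 0.400 and 0.185 in WT A and WT B, 0.317 in S265A, 0.274 in S265D and 0.360 in S265D-H1120Y. Lrp5 had 25.4 and 15.1, 18.7, 22.4 and 18.0 in the same order. Lrp6 varied little, with 18.4 and 20.3, 18.9, 20.6 and 19.6. Over the 5 samples Fzd5 lay between 2.47 and 2.71, Fzd7 between 2.97 and 4.84 and Fzd8 between 2.48 and 4.61.

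Apart from Wnt7b in S265D, no ligand or intracellular gene was 2-fold from both WT samples in S265A or S265D. Wnt2 stayed at or below 0.153 in every transduced sample and Wnt10b at or below 0.0725, both below their day 0 levels in the time course. Ctnnb1 had 114 in WT A, 103 in WT B, 104 in S265A, 97.0 in S265D and 119 in S265D-H1120Y. Axin1 had 12.8 and 13.2 in WT A and WT B, 15.0 in S265A, 11.5 in S265D and 13.4 in S265D-H1120Y. Tcf7l1 had 15.2 and 7.74, 10.2, 9.89 and 11.9, and Tcf7l2 lay between 2.54 (S265A) and 5.62 (WT A). Tcf7 was at 0.0243 in WT A and 0.341 in WT B, with 0.212 in S265A, 0.189 in S265D and 0.419 in S265D-H1120Y. Axin2 was highest in WT A (0.415) and between 0.0823 and 0.173 in the other four.

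**Figure D4:**
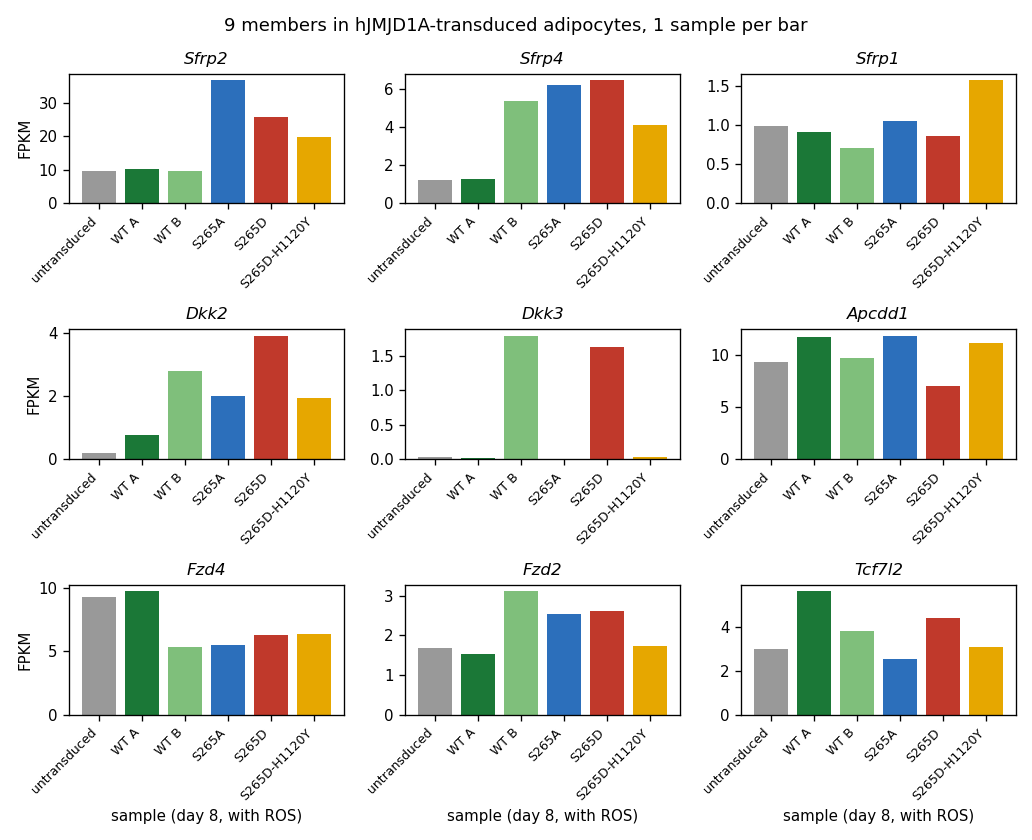
FPKM of 9 of the genes (bars, linear from 0) in untransduced im-scWAT adipocytes of the time course at day 8 with ROS (grey) and in the 5 transduced samples, 1 sample per bar. Sfrp2 is near 10 in the grey and both WT bars and at 36.9, 25.65 and 19.9 in the mutants, whereas Sfrp4, Dkk2 and Dkk3 differ as much between WT A and WT B as between WT and the mutants.

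Among 53 other genes of the pathway, 45 were tested for day 8 against day 0, with 8 called higher and 19 lower by limma, against 25.0% and 25.1% of all genes. Porcn, which attaches the lipid to Wnt ligands, rose from 0.893 and 0.804 at day 0 to 2.48 with and 2.64 without ROS at day 8 (adjusted p = 0.00277), while Wls, the carrier that brings ligands to the surface, fell from 118 and 111 to 50.3 and 73.7 (adjusted p = 0.0142). Igfbp4, a secreted protein that can bind frizzled and Lrp6, rose from 5.30 and 5.41 to 108 and 127 (adjusted p = 2.61e-05). In the R-spondin group (R-spondin ligands, Lgr receptors, Znrf3 and Rnf43), 3 of 6 genes tested were called lower at day 8 and none higher, against the same shares of all genes. Rspo2 fell from 4.20 and 4.11 to 1.03 and 1.78 (adjusted p = 0.0117) and Lgr6 from 10.8 and 10.5 to 0.955 and 2.74 (adjusted p = 0.0111). Lgr4 was higher at day 4, with 20.5 and 22.3 against 8.81 and 7.87 at day 0 (adjusted p = 0.00126), and back at 8.01 and 7.43 at day 8.

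Of 7 known target genes 6 were tested, and limma called 5 lower at day 8 and none higher, against 25.1% of all genes called lower. The 7 genes are a chosen list and not all targets of the pathway. Nkd2, among the 5, was low throughout, with 0.185 and 0.159 at day 0 and 0 and 0.0283 at day 8. Ccnd1, which drives cells out of G1, fell from 25.8 and 26.2 to 0.426 with and 2.36 without ROS (adjusted p = 0.00488), Wisp1 from 29.7 and 26.3 to 0.171 and 1.02 (adjusted p = 0.00144), and Cd44 from 36.6 and 36.3 to 1.93 and 6.79 (adjusted p = 0.00506). In each the ROS-treated sample was the lower of the pair. Myc, the other target tested, was at 30.6 and 30.0 at day 0 and at 40.4 with and 46.5 without ROS at day 8. Both day 8 samples of Myc lay above day 0, without a limma call (log2 difference 0.52, adjusted p = 0.0553). Axin2, the target of β-catenin described above, was not among these 7 genes and was called higher at day 8 (limma adjusted p = 0.0354). Other pathway genes counted in other groups went both ways. Znrf3, Notum and Lef1 were not called at day 8 (limma adjusted p = 0.951, 0.244 and 0.871), while Lgr5 and Tcf7 were called lower (limma adjusted p = 0.00563 and 0.00316). With ROS at day 8, 12 of 43 of the other pathway genes were 2-fold lower and 1 higher, against 15.2% and 3.40% of all genes. In the transduced cells S265A was 2-fold from both WT samples in 3 of 45 genes, all higher, against 3.31% of all genes (1.64% higher), and S265D in none, against 2.93%. One of the 3 was Porcn, at 7.201 and 7.49 in WT A and WT B, 18.1 in S265A, 9.86 in S265D and 16.0 in S265D-H1120Y. Its WT samples were close together, and all 3 mutants lay above them. All transduced samples, WT included, were above untransduced cells at day 8 with ROS (2.48).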

How the data were processed

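RNA was sequenced from 11 samples after TruSeq library preparation on a HiSeq instrument. According to the methods, reads were mapped by BWA against UCSC transcripts and mm9, followed by local realignment. The authors deposited FPKM for each transcript and strand. The deposited files also give the signal of each transcript as mapped bases, or coverage, from which the total per sample was worked out. These are bases and not read numbers, so no count model was fitted. Reads of near-identical genes and of overlapping transcripts may be shared by the authors' counting. The logarithms of FPKM that the files also hold were not used.

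Each gene was read from the coding sense transcript flagged as representative. Differences were tested with limma 3.58.1 (R 4.3.3) on log2(FPKM + 0.1), which understates changes of low genes, with a trend in the variance and Benjamini-Hochberg adjustment over all genes that reached an FPKM of 0.1 in the fit. Ratios used FPKM without a pseudocount. A pair of samples both at 0 was not counted as 2-fold. The study's own definition of an altered gene is a 2-fold change in FPKM. The scripts were tested on simulated data. Tables were made with Python 3.11.15, pandas 2.3.3 and numpy 2.4.6, and figures with matplotlib 3.10.9.

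The genes, the pathway and marker lists and the tests were chosen with earlier results of these data known. Every gene with an FPKM of at least 1 in a sample was named with its role. Those of them past 2-fold in a comparison, or among the 10 highest means, were given in every sample. Genes under 1 were listed by name and range, and those singled out beyond that were chosen after their values were seen. Alternatives varied the samples, the fit, the scaling, the transcript taken for a gene, the pseudocount and the minimum FPKM.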

Additional observations from a re-analysis of the deposited data

How the results depend on the processing

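No single gene called as reported changed its direction under any alternative. The counts of 2-fold genes moved with the minimum FPKM. At a minimum of 1 they were 6 for day 4 against day 0 (14 as reported), 5 for day 8 against day 0 (14), 1 for ROS at day 4 (2), 5 for ROS at day 8 (14), 1 for S265D against WT (3) and 2 for S265D-H1120Y against S265D (8). With no minimum there were 9 for ROS at day 4, of which 7 were higher and 2 lower with ROS, whereas the 2 reported were both lower. The other counts with no minimum were 6 for S265A against WT (2), 6 for S265D against WT and 14 for S265D-H1120Y against S265D. With 0.1 added before the ratio they were 7 for day 8 against day 0, 1 for ROS at day 4, 1 for S265A against WT and 5 for S265D-H1120Y against S265D. Ratios to the mean of the WT samples gave 6 genes for S265A and 6 for S265D. limma called 5 genes for ROS at day 8 (0) at a minimum FPKM of 1.

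Leaving out 1 sample gave 14 to 15 2-fold genes for day 4, 12 to 18 for day 8, 5 (without WT A) to 9 (without WT B) for S265A, and 4 (without WT A) to 10 (without WT B) for S265D. limma counts ran from 4 to 21 at day 4 and from 7 to 20 at day 8. With the ROS arm as a replicate block, limma called 13 genes at day 4 and 13 at day 8, 12 of them shared with the unblocked calls at each day. The labels do not say that an arm was followed in 1 culture. Of the values for single genes under the alternatives, 703 kept their direction and call and 134 lost the call.

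Each ROS comparison set 1 sample against 1 and each mutant was sequenced once, and the only checks between like samples come from the day 0 and WT pairs. Levels under an FPKM of 0.1 rest on few mapped bases.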

Other observations

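On the antisense strand of Wnt2b, a ligand gene, the FPKM was between 0.0701 and 0.392 over the 11 samples, while its sense strand stayed at or below 0.0595. The highest antisense value was in WT B.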
